A study of Mus musculus with 14 samples.

Results

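Epithelial cells are anchored to the basement membrane by hemidesmosomes, and the 8 genes described here encode parts of that anchor: the integrin subunits Itga6 and Itgb4, the transmembrane collagen Col17a1, the laminin chains Lama3 and Lamb3, the plakins Dst and Plec, and the tetraspanin Cd151. They were taken by gene symbol from count tables that list 55228 genes, and all 8 had counts in all 14 libraries. The libraries are poly(A)-selected RNA-seq of epithelium from wild-type, untreated CD-1 mouse embryos, an outbred stock. Bladder and urethral epithelium were each sampled in 4 libraries at embryonic day (E) 14.5 and in 3 libraries at E18.5. Each library pools tissue of the female embryos of 1 litter, and each litter gave a bladder and a urethral sample, per the design text, which counts 4 litters for the earlier stage and 3 for the later. The extraction protocol speaks of 3 litters for each kind of sample, and no label says which bladder and urethral libraries share a litter. The epithelium was peeled from the mesenchyme with forceps after trypsin digestion, without a cell sort, so cells of other layers can remain. The aim stated in the design was to find gene expression particular to each compartment.

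In a hemidesmosome, the integrin α6β4 and collagen XVII span the basal membrane of the cell, with plectin (Plec) and the epithelial form of dystonin (Dst) linking them to keratin filaments inside. Outside the cell, α6β4 binds laminin-332, to which Lama3 and Lamb3 each contribute a chain, and the tetraspanin CD151 associates with α6 integrins. Loss of these proteins causes blistering of skin and other stratified epithelia. In the urinary tract, hemidesmosome genes are typical of the basal cells of the urothelium.

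Promoter sequence was at hand for Col17a1, Lamb3, Dst and Cd151, in the RefSeq annotation of GRCm38.p6. Shown are 3 stretches of 250 bases that end just upstream of a transcription start, written 5′ to 3′ on the gene's strand. They belong to the member that differed most between the tissues (Col17a1), to a laminin-332 chain (Lamb3) and to the member with the narrowest range of levels (Cd151). Capitals mark CpG dinucleotides (CG) and the letters TATAAA of a TATA box.
Col17a1 (chr19:47692043-47692292, minus strand): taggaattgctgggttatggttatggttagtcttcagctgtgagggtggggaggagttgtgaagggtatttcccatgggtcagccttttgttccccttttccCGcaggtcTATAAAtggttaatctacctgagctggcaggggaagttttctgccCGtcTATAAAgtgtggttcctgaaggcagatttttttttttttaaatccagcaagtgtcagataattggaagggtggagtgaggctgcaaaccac
Lamb3 (chr1:193301744-193301993, plus strand): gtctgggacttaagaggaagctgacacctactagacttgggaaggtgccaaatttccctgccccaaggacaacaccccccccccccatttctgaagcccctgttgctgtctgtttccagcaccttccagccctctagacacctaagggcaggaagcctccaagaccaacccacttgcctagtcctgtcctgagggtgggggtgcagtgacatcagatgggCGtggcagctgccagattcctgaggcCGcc
Cd151 (chr7:141467112-141467361, plus strand): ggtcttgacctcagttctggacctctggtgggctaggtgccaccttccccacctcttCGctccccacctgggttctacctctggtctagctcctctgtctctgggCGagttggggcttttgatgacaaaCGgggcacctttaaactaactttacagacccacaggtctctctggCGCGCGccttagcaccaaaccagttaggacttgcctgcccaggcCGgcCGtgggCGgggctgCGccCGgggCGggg
The Col17a1 stretch holds TATAAA 2 times, 140 and 91 bases before its end, and the other stretches do not hold it on either strand. Among 32851 windows of this kind in the annotation, 12.37% hold it at least once on either strand. The AP-1 motif TGANTCA, which reads the same on both strands, lies in none of the 3 stretches and in 6.75% of all windows. The Col17a1 stretch has 46.0% G and C and 2 CpG dinucleotides, the Lamb3 stretch 58.8% and 2, and the Cd151 stretch 62.4% and 12. Lamb3 and Cd151 each have another start window, not shown, with 61.2% and 3 for Lamb3 and 58.0% and 4 for Cd151. Medians over all windows were 52.4% and 6. These matches describe the letters only, and no binding was measured.

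The libraries held 21101269 to 36810672 counts. Levels are given as CPM, the usual unit of counts relative to the library total, here after TMM scaling of the totals, and compared between genes only per kilobase of exon. The 7 pan-epithelial markers (Epcam, Cdh1 and 5 others) were present in every library. At E14.5 they summed to between 4017 and 4642 CPM in the bladder libraries and between 1657 and 3662 CPM in the urethral ones, and at E18.5 to 2653 to 3415 and 3575 to 4173 CPM. The 15 mesenchymal markers summed to 1021 to 4393, 2186 to 6193, 19550 to 29840 and 4464 to 5349 CPM in the same order of groups, and all 15 had counts in every library. The bladder samples at E18.5 thus had the highest mesenchymal sum, in which Col1a1, Col1a2 and Col3a1 weigh most. Pdgfra, Pdgfrb, Twist1, Twist2 and Prrx1 instead averaged highest in urethra at E14.5. Twist1, for example, was at 13.6 to 36.6 CPM there and at 4.04 to 8.62 CPM in bladder at E18.5. Smooth muscle markers (10 genes) summed to 5676 to 14800 CPM in bladder at E18.5, above the 295 to 2674 CPM in the other groups. Urethra replicate 1 at E14.5 lay farthest from the rest of its group and had the highest epithelial sum in it, 3662 CPM. In such mixed samples, fewer cells of a type and less RNA per cell cannot be told apart.

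Col17a1 showed the widest differences of the 8 genes in all 4 comparisons. Collagen XVII, also known as BP180, spans the basal membrane and reaches into the basement membrane. In bladder epithelium at E14.5 it stood at 15.2, 4.16, 2.35 and 3.67 CPM in replicates 1 to 4. In urethral epithelium of the same stage the values were 239, 105, 33.9 and 97.1 CPM, so the lowest urethral library was above the highest bladder library. At E18.5 the bladder libraries reached 107, 93.1 and 133 CPM and the urethral libraries 606, 596 and 750 CPM, again without overlap. The range of bladder at E18.5 lay within the wider one of urethra at E14.5, and the other neighbours in the order of the groups did not overlap.

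Col17a1 was 18.9-fold lower in bladder than in urethra at E14.5 (log2 fold change −4.24, SE 0.77, 95% interval −5.99 to −2.49, adjusted p = 0.00318) and 6.07-fold lower at E18.5 (−2.60, SE 0.18, −3.01 to −2.19, adjusted p = 3.50e-05). From E14.5 to E18.5 it rose 17.3-fold in bladder (adjusted p = 0.000323) and 5.48-fold in urethra (adjusted p = 0.00788). These values come from edgeR's quasi-likelihood test with Benjamini-Hochberg adjustment over all genes tested, as do all adjusted p-values below unless another test is named. Without bladder replicate 1 at E14.5, which alone exceeded 5 CPM in its group, the log2 difference between the tissues was −5.16 and the rise in bladder 5.02. Without urethra replicate 1 at E14.5 they were −3.64 for the tissues and 3.05 for the rise in urethra. The rise in bladder exceeded that in urethra by 1.66 on the log2 scale (SE 0.85, −0.18 to 3.50), which did not pass the test of the interaction (adjusted p = 0.179). It passed without bladder replicate 1 at E14.5, where it was 2.57 (adjusted p = 0.0236).

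**Figure D1:**
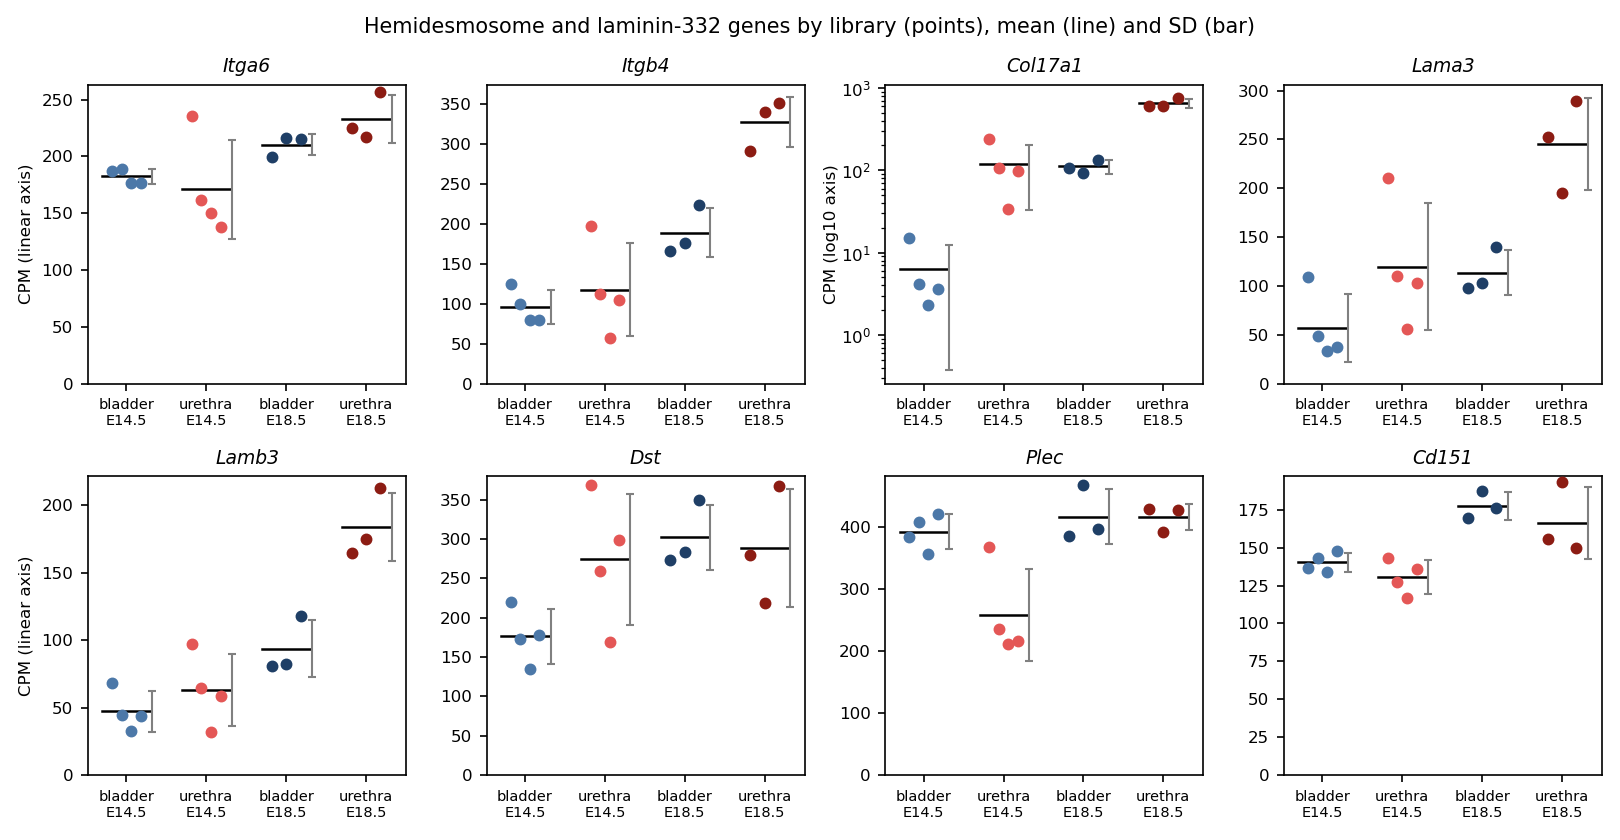
Level of each gene in the 14 libraries, in CPM, with 1 point per library, the group mean as a line and the SD as a bar. All panels have linear axes from 0 except Col17a1, which has a log10 axis. Col17a1 ranges from 2.35 CPM in an E14.5 bladder library to 750 CPM in an E18.5 urethral library, while Cd151 stays between 117 and 193 CPM.

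Col17a1 lies on chromosome 19 (47646344 to 47692094 in GRCm38, minus strand). Its start so listed, at 47692094, lies within the promoter stretch shown above, upstream of the RefSeq start used there. The listed gene that followed Col17a1 most closely was Col7a1, the collagen of anchoring fibrils that tie the basement membrane to the connective tissue beneath. At E14.5 the Col7a1 level ranged from 1.28 to 5.84 CPM across the bladder libraries and from 19.6 to 153 CPM across the urethral ones, and at E18.5 from 42.2 to 79.2 and from 310 to 368 CPM. Its log2 difference between bladder and urethra was −4.62 at E14.5 (adjusted p = 0.00190) and −2.54 at E18.5 (adjusted p = 0.000112). It rose 19.8-fold in bladder (adjusted p = 0.000189) and 4.60-fold in urethra (adjusted p = 0.00960).

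Among the integrin subunits, Itgb4 differed between the tissues at E18.5 and rose in both, while Itga6 changed little. Itgb4 encodes β4, which pairs only with α6 and reaches the plakins through its long cytoplasmic tail. At E14.5 its level was 125, 99.5, 79.3 and 79.8 CPM in bladder and 197, 112, 57.4 and 104 CPM in urethra, and the groups overlapped. By E18.5 it was 166, 176 and 224 CPM in bladder and 292, 341 and 352 CPM in urethra, where every urethral library was above every bladder library. The log2 difference between bladder and urethra was −0.32 at E14.5 (SE 0.33, −1.07 to 0.43, adjusted p = 0.447) and −0.85 at E18.5 (SE 0.15, −1.19 to −0.51, adjusted p = 0.00272). In a fit of all 14 libraries the E18.5 difference missed the threshold (−0.80, adjusted p = 0.0752). Itgb4 rose by 0.98 in bladder (adjusted p = 0.0199) and by 1.48 in urethra (adjusted p = 0.00299). The rise in bladder missed the threshold without bladder replicate 4 at E14.5 (adjusted p = 0.0585) or bladder replicate 3 at E18.5 (adjusted p = 0.0809).

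Itga6 encodes α6, which pairs with β1 as well as β4. It was at 187, 189, 177 and 177 CPM in bladder and 235, 161, 150 and 138 CPM in urethra at E14.5, with the groups overlapping because of urethra replicate 1. At E18.5 it was at 200, 216 and 215 CPM in bladder and 225, 217 and 257 CPM in urethra, where the lowest urethral library was barely above the highest bladder library. The log2 difference between bladder and urethra was 0.06 at E14.5 (−0.29 to 0.41, adjusted p = 0.761) and −0.21 at E18.5 (−0.46 to 0.05, adjusted p = 0.176). Without urethra replicate 1 at E14.5, Itga6 was higher in bladder by 0.26 (adjusted p = 0.0199). The rise in urethra, 0.45 (SE 0.15, adjusted p = 0.0331), passed in 1 of the 7 fits that each left out 1 library of that contrast, the one without urethra replicate 1 at E14.5, with adjusted p-values up to 0.111 over the 7. Itga6 lies on chromosome 2 (71745616 to 71858416, plus strand) and Itgb4 on chromosome 11 (115974709 to 116008412, plus strand).

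The laminin chains Lama3 and Lamb3 were both lower in bladder at E18.5, and neither difference passed at E14.5 in the fit of that stage. Lama3, the α3 chain that carries the integrin-binding domains, stood at 109, 48.4, 33.2 and 37.3 CPM in bladder and 211, 110, 55.6 and 103 CPM in urethra at E14.5. At E18.5 it stood at 97.4, 103 and 140 CPM in bladder and 252, 195 and 289 CPM in urethra. The groups overlapped at E14.5, through bladder replicate 1, and not at E18.5. Lama3 was lower in bladder at both stages by about the same amount, −1.10 at E14.5 (SE 0.48, −2.19 to −0.01, adjusted p = 0.0915) and −1.17 at E18.5 (SE 0.20, −1.62 to −0.72, adjusted p = 0.00217), and only the later difference passed. Without bladder replicate 1 the E14.5 difference was −1.64 (adjusted p = 0.0196). It also passed with DESeq2 (−1.10, adjusted p = 0.04275) and in a fit of all 14 libraries (−1.07, adjusted p = 0.04475). In that fit of all 14 libraries the E18.5 difference missed the threshold (−1.115, adjusted p = 0.0822).

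Lamb3 encodes the β3 chain. It was measured at 68.4, 44.6, 32.5 and 43.5 CPM in bladder and 97.5, 64.6, 31.9 and 58.6 CPM in urethra at E14.5, in overlapping ranges. At E18.5 the bladder libraries had 80.6, 82.5 and 118 CPM and the urethral libraries 165, 175 and 213 CPM, without overlap. Its log2 difference was −0.45 at E14.5 (SE 0.33, −1.20 to 0.31, adjusted p = 0.297) and −1.03 at E18.5 (SE 0.18, −1.45 to −0.61, adjusted p = 0.00287). Lamb3 rose by 0.99 in bladder (adjusted p = 0.0220) and by 1.55 in urethra (adjusted p = 0.00277). The rise in bladder missed the threshold when bladder replicate 2, 3 or 4 at E14.5 or bladder replicate 3 at E18.5 was left out, with adjusted p-values of 0.0521 to 0.107. Lama3 gained 0.99 in bladder (adjusted p = 0.0838) and 1.03 in urethra (adjusted p = 0.0807), neither of which passed. These passed without bladder replicate 1 at E14.5 (1.51, adjusted p = 0.00663) and without urethra replicate 1 at E14.5 (1.46, adjusted p = 0.0122), and the gain in urethra passed with DESeq2 (adjusted p = 0.04686).

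Ratios of genes within a library do not depend on library scaling. Lama3 per Lamb3, from counts per kilobase, was 0.701 ± 0.194 (SD, n = 4) in bladder and 1.13 ± 0.13 (SD, n = 4) in urethra at E14.5, without overlap. At E18.5 it was 0.746 ± 0.019 and 0.821 ± 0.129 (SD, n = 3 each), in overlapping ranges. An exact two-sided permutation test gave p = 0.0286 at E14.5, the smallest value that 4 against 4 libraries allow, and p = 0.4 at E18.5, where 3 against 3 cannot go below 0.1. Over 6 ratios tested per stage the adjusted values were 0.0857 and 0.4, so neither passed. Lama3 lies on chromosome 18 (12333819 to 12583013, plus strand) and Lamb3 on chromosome 1 (193207699 to 193343878, plus strand). The Lamb3 promoter stretch shown above, from 193301744 to 193301993, lies inside this extent, downstream of the listed start. It thus belongs to a RefSeq start other than the listed one.

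**Figure D2:**
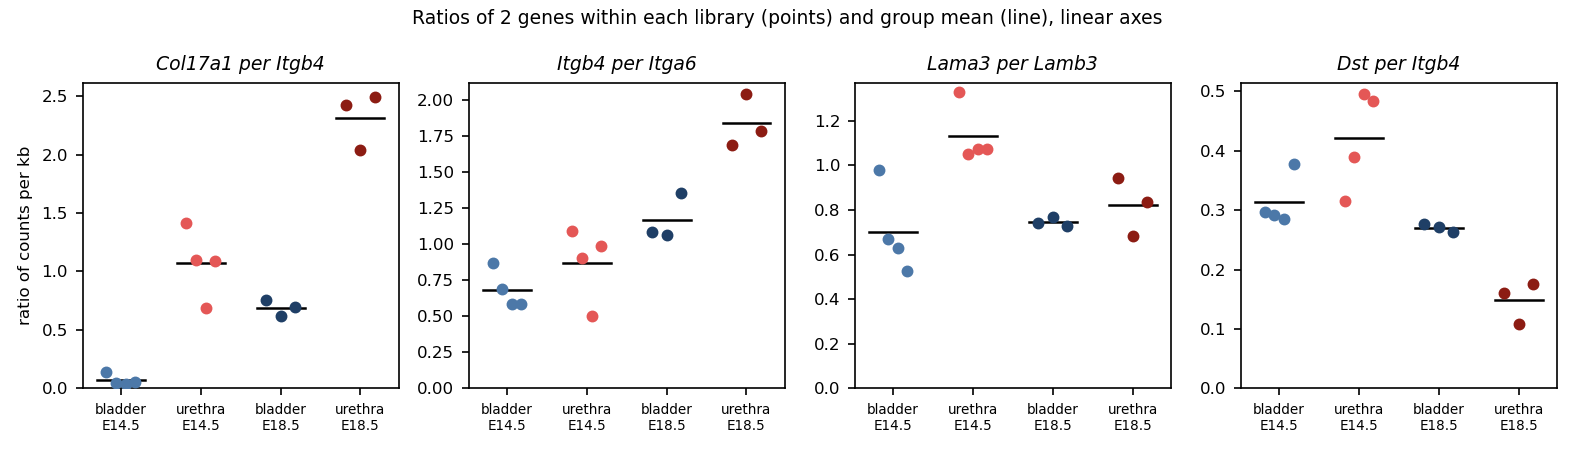
Ratios of counts per kilobase of 2 genes within each library, with 1 point per library and the group mean as a line, on linear axes from 0. Col17a1 per Itgb4 averages 0.0698 in bladder and 1.07 in urethra at E14.5, and 0.688 and 2.32 at E18.5, while Dst per Itgb4 averages 0.313 and 0.421 at E14.5, and 0.271 and 0.148 at E18.5.

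Col17a1 per Itgb4 was 0.0698 ± 0.0491 (SD, n = 4) in bladder and 1.07 ± 0.30 (SD, n = 4) in urethra at E14.5, and 0.688 ± 0.068 and 2.32 ± 0.24 at E18.5 (SD, n = 3 each), with no overlap at either stage. Itgb4 per Itga6 was 0.682 ± 0.134 and 0.871 ± 0.259 at E14.5, in overlapping ranges, and 1.17 ± 0.16 and 1.84 ± 0.18 at E18.5, with no overlap. The first ratio had an exact permutation p = 0.0286 (adjusted 0.0857) at E14.5 and 0.1 (adjusted 0.15) at E18.5. The second had 0.343 (adjusted 0.411) and 0.1 (adjusted 0.15). Dst per Itgb4 was 0.313 ± 0.043 and 0.421 ± 0.085 at E14.5, in overlapping ranges, and 0.271 ± 0.007 and 0.148 ± 0.036 at E18.5, with bladder higher and no overlap (exact permutation p = 0.0571 and 0.1, adjusted 0.0857 and 0.15). Plec per Itgb4 was 1.64 ± 0.36 and 0.943 ± 0.326 at E14.5, in overlapping ranges. At E18.5 it was 0.871 ± 0.172 and 0.495 ± 0.064, with bladder higher and no overlap (exact permutation p = 0.0571 and 0.1, adjusted 0.0857 and 0.15). Cd151 per Itga6 overlapped between the tissues at both stages (exact permutation p = 0.857 and 0.4, adjusted 0.857 and 0.4). The order of the genes per kilobase changed with tissue and stage accordingly. Col17a1 was the lowest of the 8 genes in bladder at E14.5, at 1.06 ± 0.99 CPM per kb, and the highest in urethra at E18.5, at 108 ± 14 CPM per kb. In the other 3 groups Cd151 was the highest, at 51.2 ± 2.2 in bladder at E14.5, 47.6 ± 4.2 in urethra at E14.5 and 64.8 ± 3.4 CPM per kb in bladder at E18.5.

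The plakins differed in opposite directions between the tissues at E14.5 and were alike in level at E18.5. Dst encodes dystonin, whose epithelial form BP230 ties collagen XVII and β4 to keratin. It stood at 220, 172, 135 and 179 CPM in bladder and 368, 260, 169 and 299 CPM in urethra at E14.5, overlapping through urethra replicate 3. At E18.5 it stood at 274, 284 and 349 CPM in bladder and 280, 218 and 367 CPM in urethra, in overlapping ranges. Dst was 1.59-fold lower in bladder at E14.5 (−0.66, SE 0.23, −1.19 to −0.14, adjusted p = 0.0450) and differed by 0.01 at E18.5 (−0.44 to 0.47, adjusted p = 0.967). The E14.5 call was lost when bladder replicate 2, 3 or 4 or urethra replicate 1, 2 or 4 was left out, with adjusted p-values of 0.0791 to 0.104. Dst rose by 0.78 in bladder (SE 0.24, adjusted p = 0.0208) and differed by 0.07 in urethra (−0.45 to 0.60, adjusted p = 0.843). Leaving out bladder replicate 3 at E14.5 or bladder replicate 3 at E18.5 ended the call in bladder (adjusted p = 0.0518 and 0.0932). The interaction, 0.70 (SE 0.34, adjusted p = 0.160), did not pass.

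Plec encodes plectin, which binds β4 directly and also links other structures to intermediate filaments in many cell types. Its values at E14.5 were 384, 407, 357 and 422 CPM in bladder and 368, 236, 212 and 216 CPM in urethra, so only urethra replicate 1 reached the bladder range. At E18.5 they were 385, 468 and 398 CPM in bladder and 429, 392 and 428 CPM in urethra, in overlapping ranges. Plec was 1.49-fold higher in bladder at E14.5 (0.58, SE 0.17, 0.18 to 0.97, adjusted p = 0.0267), and differed by −0.06 at E18.5 (−0.31 to 0.20, adjusted p = 0.732). The E14.5 call did not hold when bladder replicate 1, 2 or 4 or urethra replicate 2, 3 or 4 was left out (adjusted p-values 0.0553 to 0.0727), and was strongest without urethra replicate 1 (0.80, adjusted p = 0.000214). Plec rose by 0.69 in urethra (SE 0.17, adjusted p = 0.00722) and differed by 0.09 in bladder (−0.27 to 0.45, adjusted p = 0.712). The interaction was −0.60 (SE 0.24, adjusted p = 0.0835), and −0.82 without urethra replicate 1 at E14.5 (adjusted p = 0.000685).

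Dst lies on chromosome 1 (33908225 to 34308661, plus strand) and Plec on chromosome 15 (76170974 to 76232574, minus strand). Both genes make several forms from separate starts, and the counts sum all of them. For Dst, RefSeq gives 2 start windows 149 kb apart, so the epithelial form cannot be told apart from the others in these counts. Plec shares 205 bases of exon with Parp10 on the same strand, which is 1.13% of its exonic length.

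Cd151 had the narrowest range of the 8 genes. This tetraspanin, a membrane organiser that binds α6 and α3 integrins, was at 137, 143, 134 and 148 CPM in bladder and 143, 127, 117 and 136 CPM in urethra at E14.5. At E18.5 it was at 169, 188 and 176 CPM in bladder and 156, 193 and 150 CPM in urethra. The tissues overlapped at both stages, with log2 differences of 0.07 (SE 0.08, −0.10 to 0.24, adjusted p = 0.447) and 0.04 (SE 0.12, −0.24 to 0.31, adjusted p = 0.83). Cd151 rose by 0.34 in bladder (SE 0.10, adjusted p = 0.0147) and by 0.35 in urethra (SE 0.10, adjusted p = 0.0166), with no overlap of the stages in either tissue. The calls were lost without bladder replicate 2 at E18.5 (adjusted p = 0.0904) and without urethra replicate 2 at E14.5 or at E18.5 (adjusted p = 0.0536 and 0.0718). The bladder call was also lost with no filter (adjusted p = 0.0584), and the urethra call in a fit of the urethral libraries alone (adjusted p = 0.0588). Cd151 lies on chromosome 7 (141467392 to 141471473, plus strand), and 7.04% of its exonic length overlaps the antisense gene Gm10575.

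**Figure D3:**
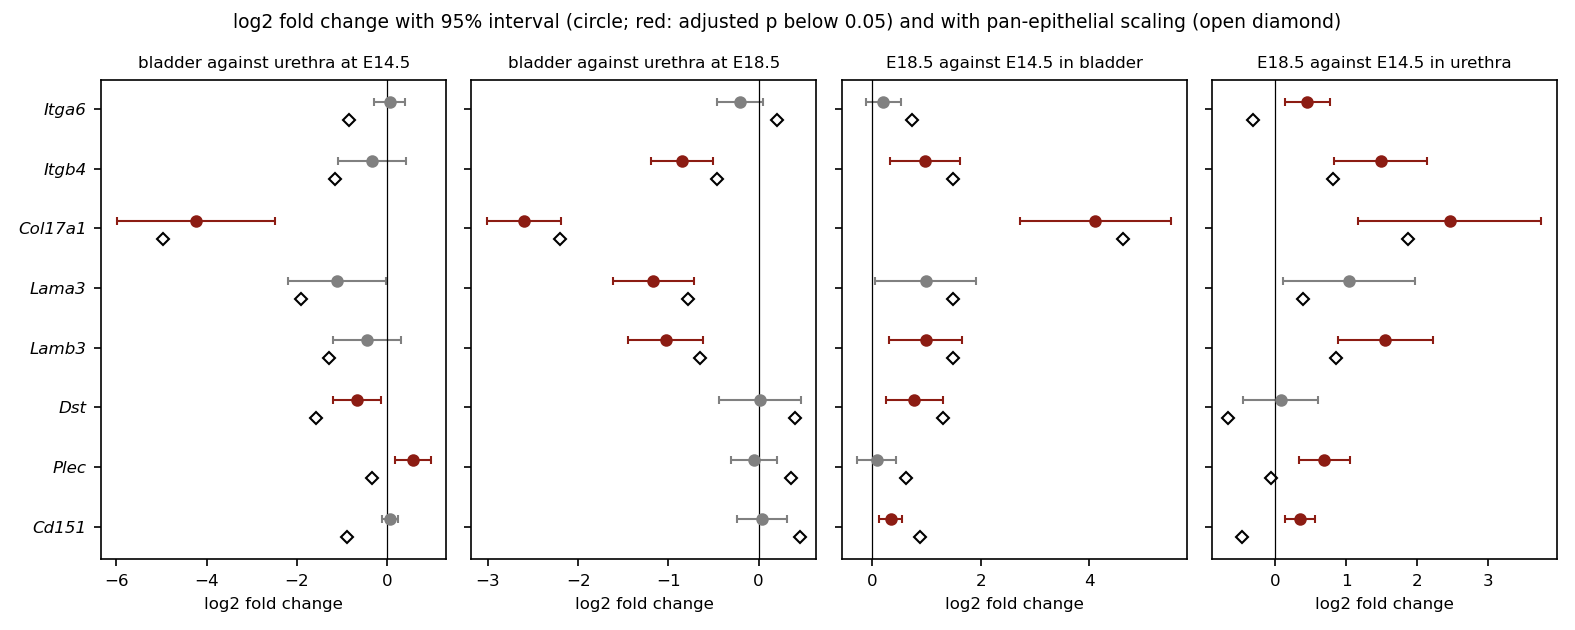
The log2 fold change of each gene in 4 comparisons, as a circle with its 95% interval (red where the adjusted p is below 0.05) and, as an open diamond, after scaling to the pan-epithelial markers; each panel has its own linear axis. Col17a1 is farthest from 0 in every panel, from −4.24 to 4.12, and its diamond lies on the same side of 0 each time.

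Between bladder and urethra at E14.5, 1 of the 8 genes was called higher in bladder (Plec) and 2 lower (Col17a1 and Dst), where 44% of 16697 tested genes were called in either direction (23.1% higher, 20.9% lower). The median log2 difference of the 8 was −0.39, beside −0.04 over all genes tested. At E18.5, none was higher and 4 were lower (Itgb4, Col17a1, Lama3 and Lamb3), where 37.9% of 17513 genes were called (19.3% higher, 18.6% lower). The median there was −0.53, beside −0.03. No member was higher at an unadjusted p under 0.05 in edgeR, and DESeq2 called none higher. The bladder and urethra libraries did not overlap for 1 member at E14.5 (Col17a1) and 5 at E18.5, while 40.4% and 51.1% of all tested genes had no overlap. The share called at E14.5 was thus near the background.

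With age, 5 of the 8 genes rose in bladder (Itgb4, Col17a1, Lamb3, Dst and Cd151), where 40.3% of 18286 tested genes were called (19.9% higher, 20.4% lower), and 6 rose in urethra (Itga6, Itgb4, Col17a1, Lamb3, Plec and Cd151), where 33% were called (17.3% higher, 15.7% lower). None fell in either tissue, at an unadjusted p under 0.05 in edgeR or by DESeq2. The median changes were 0.88 and 0.86, beside −0.01 and 0.00 over all genes. No gene of the 8 passed the test of the tissue by stage interaction in edgeR or DESeq2, where 22.9% of all genes did (12.2% higher, 10.7% lower), and 1 had an unadjusted p under 0.05 (Plec). The stages were counted in separate tables and come from different litters, so stage and any difference in handling between them cannot be told apart.

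The pan-epithelial sums differed between the groups, so each member was also expressed per 1000 counts of the 7 markers. Scaling library sizes to these markers moved the median of all genes to −1.02 at E14.5, 0.40 at E18.5, 0.53 in bladder with age and −0.84 in urethra with age. Col17a1 kept its direction and its call in all 4 comparisons (−4.97, −2.21, 4.63 and 1.87). Per 1000 epithelial counts it was 0.584 to 3.64 in bladder and 20.4 to 65.3 in urethra at E14.5, and 30.9 to 40.5 and 145 to 210 at E18.5. Lama3 and Lamb3 also stayed lower in bladder at E18.5 (−0.78, adjusted p = 0.00696, and −0.65, adjusted p = 0.0170), where 7.52% of all genes were called lower on this scale, while Itgb4 missed the threshold (−0.46, adjusted p = 0.0602). At E14.5, 7 members were called lower in bladder, as were 68.4% of all genes, and Plec, at −0.32 (adjusted p = 0.105), lay above the median of all genes. With age, all 8 rose in bladder, beside 31.4% of all genes. In urethra Itgb4, Col17a1 and Lamb3 rose, beside 5.38% of all genes, and Dst fell by 0.67 (adjusted p = 0.0225), beside 53.8%. The interaction was positive and passed for 6 members on this scale, among them Col17a1 (2.76, adjusted p = 0.00382), beside 70.4% of all genes and a median of 1.36.

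**Figure D4:**
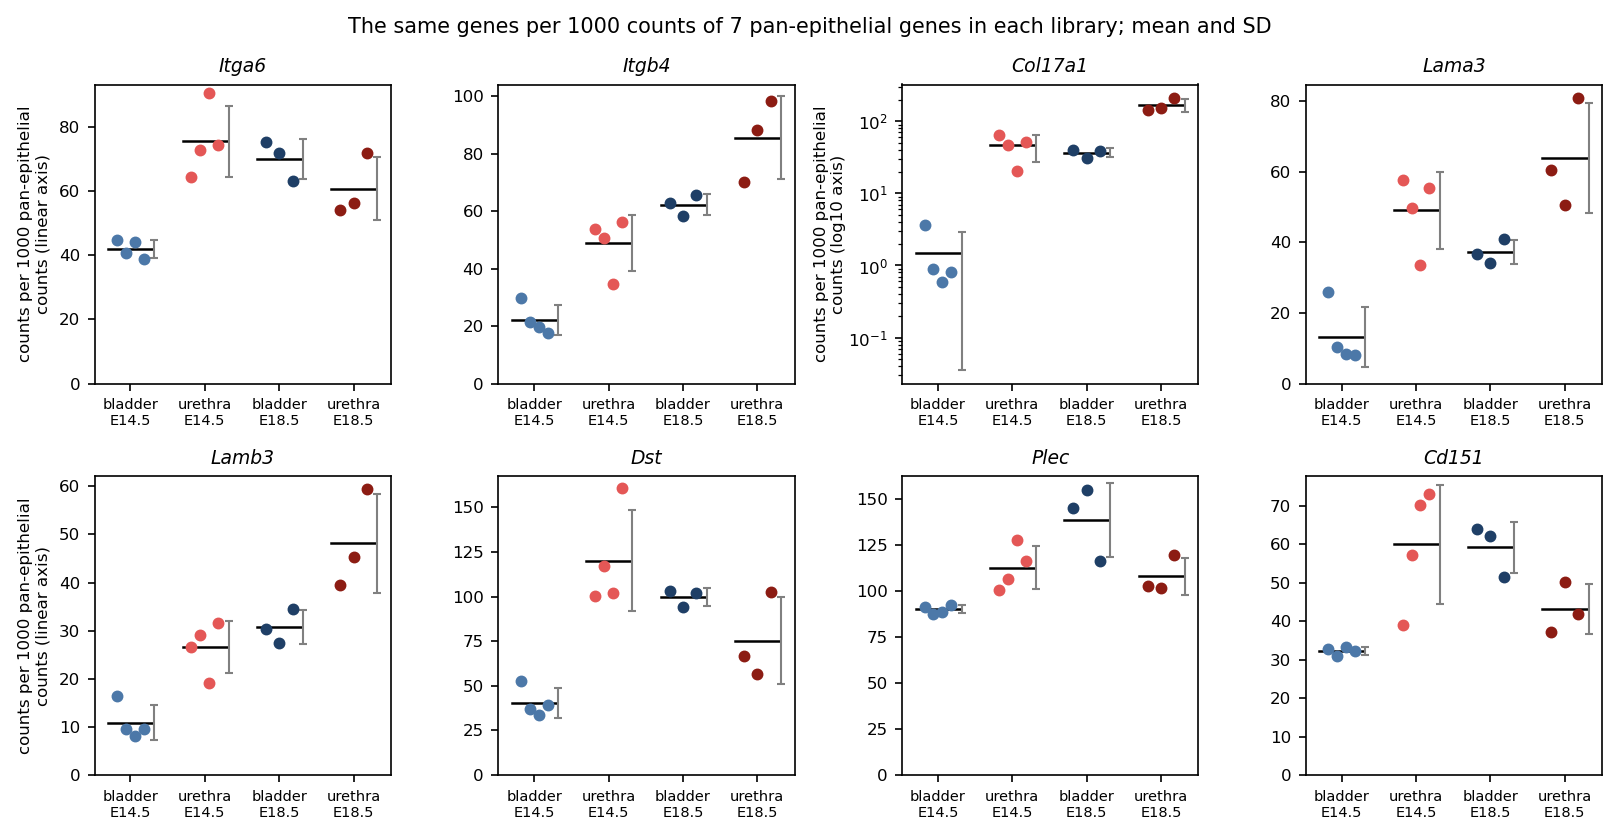
The same genes as counts per 1000 summed counts of the 7 pan-epithelial markers in each library, with 1 point per library, the group mean as a line and the SD as a bar. Axes are linear from 0 except for Col17a1 (log10). Col17a1 has its lowest values in E14.5 bladder (0.584 to 3.64) and its highest in E18.5 urethra (145 to 210).

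Markers of other tissues moved with the E18.5 and bladder results. Their part in them was not tested beyond a fit with a mesenchymal covariate, the mean log2 CPM of the mesenchymal markers. In that fit at E18.5 no member was called and 2 of all genes were, with Col17a1 at −1.87 (adjusted p = 0.197), Lama3 at −0.02 and Lamb3 at −0.04. The mesenchymal sum, in which the strongest markers weigh most, does not overlap between the tissues at E18.5, though single markers such as Twist1 and Prrx1 do. Mesenchymal signal, so summed, and tissue therefore cannot be told apart there. At E14.5, where the sums overlap, Col17a1 and Dst stayed lower in bladder in that fit, and the Plec call was lost (0.29, adjusted p = 0.283). Endothelial markers (10 genes, all 10 called higher in bladder) summed to 319 to 465 CPM and immune markers (8 genes, 6 higher) to 127 to 169 CPM in bladder at E18.5, above the 71.2 to 114 CPM and 43.4 to 53.3 CPM in urethra. Other lists were mixed at that stage. Of 8 skeletal muscle markers 3 were higher and 3 lower in bladder, with a sum (549 to 1771 CPM, and 261 to 519 CPM for urethra) that in bladder was mostly Acta1. Myh3 ranged over 1.82 to 2.86 CPM for bladder against 45.7 to 112 CPM for urethra, and Myod1 and Myog were lower in bladder too. Of 4 mesothelial markers, Wt1 (5.96 to 21.3 CPM, and 2.86 to 5.00 CPM for urethra) and Lrrn4 were higher in bladder. Msln (54.1 to 78.1 CPM, and 186 to 326 CPM for urethra) was lower and made up most of the sum (69.2 to 131 CPM in bladder, 201 to 339 CPM in urethra). Of 9 Schwann and neural markers (185 to 297 CPM in bladder, 284 to 426 CPM in urethra, overlapping) 1 was higher and 1 lower.

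The keratins and the transcription factor of basal cells form or govern the filaments that hemidesmosomes hold. Of these, 3 of 5 were lower in bladder at E14.5 and 5 of 5 at E18.5, none higher. Over all tested genes, 20.9% and 18.6% were called lower. The same background, with 23.1% and 19.3% called higher, holds for the lists below. Krt14 differed by −6.23 (adjusted p = 0.00181) and Krt17 by −7.04 (adjusted p = 0.000528) at E14.5. Bladder levels were near the floor there, at 0.285 to 3.54 CPM for Krt14 and 0.336 to 1.89 CPM for Krt17. For Krt17 they were still 0.64 to 4.5 CPM at E18.5. The sizes of these differences and of the Krt14 rise in bladder rest on these low levels. By E18.5 the difference was −0.62 for Krt14 (adjusted p = 0.00846) and −6.39 for Krt17 (adjusted p = 8.14e-05). Krt5, the partner of Krt14, was lower by 2.75 at E14.5 (adjusted p = 0.0240) and by 0.37 at E18.5 (adjusted p = 0.0410). The Krt5 difference missed the threshold without bladder replicate 2 or 4 at E14.5 (adjusted p = 0.0647 and 0.0583) and without any 1 library at E18.5 except bladder replicate 3 (adjusted p-values 0.0585 to 0.165). Krt5 rose by 3.12 and Krt14 by 7.25 in bladder with age. The rise of Krt14 in bladder exceeded that in urethra by 5.64 (adjusted p = 0.00330). Trp63, which encodes p63, differed by −0.57 at E14.5 (adjusted p = 0.132) and −0.56 at E18.5 (adjusted p = 0.0190), the latter lost without bladder replicate 1 or 2 or urethra replicate 1 or 3 (adjusted p-values 0.0527 to 0.0708). Without urethra replicate 3 the E14.5 difference of Trp63 was −0.76 (adjusted p = 0.0293). With pan-epithelial scaling all 5 were lower at E14.5, as were 68.4% of all genes. At E18.5, 2 of 5 were lower on that scale (Krt15 and Krt17), beside 7.52% of all genes. There Krt5 turned to 0.04, and Krt14 and Trp63 missed the threshold at −0.22 and −0.15. A fit of all 14 libraries ended the E18.5 calls of Krt5, Krt14 and Trp63 (adjusted p = 0.772, 0.569 and 0.191).

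The 8 other laminin genes described here did not move as 1 group. In bladder against urethra, 0 were higher and 4 lower at E14.5 by edgeR (0 higher by DESeq2 as well, and 8 lower with pan-epithelial scaling, as were 68.4% of all genes), and 3 were higher and 1 lower at E18.5. None of the 8 had a positive difference at E14.5. Lama5, the broadly used epithelial α chain, was lower in bladder at E18.5 (−1.24, adjusted p = 0.000728), while Lama4, an α chain of vessels and muscle, was higher there (1.46, adjusted p = 0.00106). Lamb2 rose by 1.88 in bladder (adjusted p = 5.07e-07) and by 0.87 in urethra (adjusted p = 0.000172), with an interaction of 1.02 (adjusted p = 0.000844). The rise of Lamb2 in urethra was 0.00 with pan-epithelial scaling. Lama5 rose by 0.82 in urethra (adjusted p = 0.00584) and by 0.05 there with that scaling.

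Of 19 other basement membrane genes, 2 were higher and 9 lower in bladder at E14.5 among 18 tested, and 9 were higher and 6 lower at E18.5. Tinagl1, a secreted matrix protein, was higher in bladder at E14.5 by 3.06 (adjusted p = 0.000478), against the direction of Col7a1. Npnt, a ligand of α8β1 integrin, was lower in bladder at E18.5 by 1.29 (adjusted p = 8.97e-05). Of 17 other matrix receptors, 5 were higher and 3 lower in bladder at E14.5, and 7 higher and 3 lower at E18.5. Itgb8 was lower in bladder at both stages (−3.26, adjusted p = 0.000707, and −1.69, adjusted p = 0.000702), and Itgb6 was higher at E14.5 (1.52, adjusted p = 0.00128). Itgb1, the partner of most α subunits, rose by 0.97 in bladder with age (adjusted p = 3.31e-05), where the bladder libraries also gained mesenchymal signal. With pan-epithelial scaling, 1 receptor was higher and 11 of 17 were lower in bladder at E14.5, where 68.4% of all genes were lower.

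Other plakins, most of which serve desmosomes or the cornified envelope, were lower in bladder at E18.5 for 4 of 5 genes, and for 2 of 5 with pan-epithelial scaling. Dsp, the desmosomal plakin, was 2.30-fold lower (adjusted p = 0.000728) and Ppl 2.08-fold (adjusted p = 0.00180) there. Macf1, the plakin most like Dst, was lower in bladder by 0.44 at E14.5 (adjusted p = 0.00930) and by 0.47 at E18.5 (adjusted p = 0.0178). The latter missed the threshold without bladder replicate 3 or urethra replicate 1 or 3 (adjusted p-values 0.0613 to 0.0796), and was −0.04 with pan-epithelial scaling. Evpl was higher in bladder at E14.5 (1.66, adjusted p = 0.00531). Unlike Cd151, 6 of 8 other tetraspanins were higher in bladder at E14.5, and 2 higher and 3 lower with pan-epithelial scaling, which called 68.4% of all genes lower. Tspan8 was higher by 2.44 (adjusted p = 0.00200) and Tspan15 by 0.92 (adjusted p = 0.000467), the latter turning to −0.06 on the epithelial scale. Cd63 was higher in bladder at E18.5 by 1.05 (adjusted p = 0.000707). The difference between Cd151 and these genes was not tested.

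Of 9 genes for proteases that cleave laminin-332 or collagen XVII, 3 were higher and 4 lower in bladder at E14.5, and 4 higher and 1 lower at E18.5. Bmp1, a protease that processes laminin chains, was lower in bladder at E14.5 by 1.86 (adjusted p = 0.000766), as was Mmp14, a membrane-bound matrix metalloprotease, by 1.29 (adjusted p = 0.000601). Plau rose by 2.56 in bladder with age (adjusted p = 1.56e-06). Focal adhesion genes, which encode the actin-linked counterpart of the hemidesmosome, were split at E14.5 (2 higher, 2 lower of 11) and mostly higher in bladder at E18.5 (6 higher, 1 lower). With pan-epithelial scaling 0 were higher and 8 of 11 lower at E14.5, near the 68.4% of all genes called lower on that scale.

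For each member, the genes outside the 8 with the most similar levels over the 14 libraries were found by Pearson's r of log2 CPM. Only genes with a mean of at least 5 CPM and no predicted or clone symbol entered. The values are a description only, since libraries of a group lie close together. Between members the highest r was 0.985, for Itgb4 and Lamb3. For Col17a1 they were Papln (0.986), Usp18 (0.986) and Col7a1 (0.984). Outside the members, Itgb4 was followed most closely by Btc (0.968), Duoxa1 (0.964) and Sowahc (0.961), and Lamb3 by Sowahc (0.968), Bhlhe40 (0.959) and Zfp809 (0.958). Lama3 had Clstn1 (0.969), Nop53 (0.967) and Isg20 (0.957), and Plec had Tgfa (0.984), Tmod3 (0.978) and Fam129b (0.976). The closest genes to Itga6 were Dusp16 (0.943), Iqsec2 (0.933) and Ppfibp1 (0.932), and to Cd151 Polb (0.945), Rplp0 (0.942) and Atp6v1c1 (0.940). Dst had the lowest such values, with Slc2a9 (0.899), Fnip1 (0.898) and Mtmr3 (0.894).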

How the data were processed

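RNA-seq counts from 14 libraries were analysed. Per the labels, poly(A) RNA was prepared with a directional kit and sequenced as paired reads of 100 bases. Per the submitters' processing notes, the tools included bcl2fastq, HISAT2 2.2.1 and SAMtools 1.9, with genome build GRCm38; how reads were assigned to genes, whether by strand and with which annotation, is not given in the sources used here. The deposited values are raw counts per gene, 1 table per stage. Antisense partners can therefore not be separated with certainty.

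Tests used edgeR 4.0.16 (quasi-likelihood, TMM, filterByExpr) in R 4.3.3, with Benjamini-Hochberg adjustment over all tested genes and a threshold of 0.05. Tissue comparisons used the libraries of 1 stage, and stage and interaction contrasts all 14. CPM for display used effective sizes over 14 libraries. Named genes are the 8 members and, of each list and comparison, up to 3 genes of lowest adjusted p plus the strongest one that went against the majority. Col7a1 is followed through the tissue and stage comparisons, without the interaction, a choice made after its values were seen. Krt5, Krt14, Trp63 and Macf1 are given for some comparisons only, also chosen after their values were seen. One listed gene is not reported here. The within-library ratios were added after the values were seen. The members and lists were chosen with earlier results of these data known. Scripts were tested on simulated data. Alternatives were DESeq2 1.42.0 and its size factors, other filters, pan-epithelial scaling (library size set by 7 markers), a mesenchymal covariate, a replicate block, all 14 libraries or 1 tissue in a fit, and each library left out.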

Additional observations from a re-analysis of the deposited data

Results flagged for a closer look

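In 16 gene-by-group sets of 4 libraries (the 8 members at E14.5), a library stood apart from the other 3 in 2 sets by Dixon's test at 95%, where chance gives about 1 set in 20. Col17a1 was at 15.24 CPM in bladder replicate 1 at E14.5, above the other bladder libraries of that stage. That library was also the highest of its group for Itgb4, Lama3, Lamb3, Dst, Krt5, Krt14, Krt15, Krt17 and Trp63. It was not the highest for Itga6, Plec or Cd151. Plec was at 368.2 CPM in urethra replicate 1 at E14.5, above the other urethral libraries and within the bladder range. The same urethral library had the highest pan-epithelial sum of its group (3662 CPM). Groups of 3 libraries were not tested in this way.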

How the results depend on the processing

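Over all alternatives run within the tissue and stage comparisons, Col17a1 kept its direction, and it kept its call except in the E18.5 fit with the mesenchymal covariate (−1.87, adjusted p = 0.197). At E14.5 the number of members lower in bladder was 2 in the reported fit, 1 with DESeq2 size factors or with no filter, 3 with DESeq2 or in a fit of all 14 libraries, 7 with pan-epithelial scaling and 1 to 3 when 1 library was left out; the number higher was 1, and 0 with pan-epithelial scaling or the mesenchymal covariate and 0 to 2 when 1 library was left out. At E18.5 the 4 lower members became 0 with the covariate. They became 2 in a fit of all 14 libraries, where Itgb4 and Lama3 lost their calls, and stayed 4 without any 1 library. In bladder with age 5 rose, 4 with no filter, 6 in the bladder libraries alone, 8 with pan-epithelial scaling and 2 to 6 without 1 library. In urethra 6 rose, 7 with DESeq2, 4 in the urethral libraries alone, 3 with pan-epithelial scaling (and 1 fell), and 4 to 7 without 1 library. For the interaction 0 passed, 6 with pan-epithelial scaling, all positive, and 0 to 1 positive and 0 to 2 negative without 1 library.

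Directions turned as follows, in log2 fold change. Pan-epithelial scaling moves the median of all genes to −1.02 at E14.5, 0.40 at E18.5, −0.84 in urethra with age and 1.36 for the interaction. Single genes shift by unequal amounts: at E14.5 Col17a1 went from −4.24 to −4.97 and Cd151 from 0.07 to −0.89. Relative to these medians each gene listed under that scaling kept its direction. With pan-epithelial scaling at E14.5: Itga6 −0.84, Plec −0.32, Cd151 −0.89 and Tspan15 −0.057; at E18.5: Itga6 0.21, Plec 0.36 and Krt5 0.042; in urethra with age: Itga6 −0.31, Dst −0.67, Plec −0.063 and Cd151 −0.48; for the interaction: Itga6 1.05, Itgb4 0.68, Lama3 1.11, Lamb3 0.65, Plec 0.69 and Cd151 1.35. With the mesenchymal covariate at E14.5: Itga6 −0.13 and Cd151 −0.022; at E18.5: Itga6 0.006, Plec 0.022, Krt5 0.12 and Lama4 −0.24. In a fit of all 14 libraries Plec was 0.002 at E18.5. The Cd151 interaction was 0.003 with a minimum of 1 CPM. Leaving out 1 library gave Itga6 −0.026 to 0.258 and Itgb4 −0.55 to 0.045 at E14.5. At E18.5 it gave Dst −0.16 to 0.23, Plec −0.12 to 0.032 and Cd151 −0.031 to 0.15. With age it gave Plec −0.031 to 0.15 in bladder and Dst −0.11 to 0.27 in urethra. For the interaction it gave Lama3 −0.46 to 0.48 and Cd151 −0.084 to 0.11. The cause of the turns outside pan-epithelial scaling was not tested.

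Same-numbered bladder and urethral libraries had correlated deviations from their group means of −0.104 to 0.391 at E14.5 and −0.189 to 0.138 at E18.5, and 2 of 4 and 1 of 3 bladder libraries correlated best with their own number. No label says that a number marks a litter, so the numbers were not taken to pair the samples. With the replicate block, 4 members were lower at E14.5 (Col17a1, Dst, Lama3 at −1.12 with adjusted p = 0.00246 and Lamb3 at −0.40 with adjusted p = 0.0348). For the interaction 2 were then positive (Col17a1 1.76, adjusted p = 0.00361, and Dst 0.69, adjusted p = 0.0206) and 1 negative (Lamb3 −0.62, adjusted p = 0.0261). Calls over all genes with the block were 7680 at E14.5, 5363 at E18.5 and 4322 for the interaction. At E18.5 the block ended the calls of Krt5 (adjusted p = 0.0914) and Macf1 (adjusted p = 0.0504). No sample set could carry a block between stages, which come from different litters.

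Calls over all genes moved by more than 1.5 times from 7351 to 11932 (517 higher, 11415 lower) with pan-epithelial scaling and 3266 with the covariate at E14.5, from 6635 to 2 with the covariate at E18.5, from 6031 to 10823 (983 higher, 9840 lower) in urethra with age and from 4183 to 13154 (12881 higher, 273 lower) for the interaction with pan-epithelial scaling. That scaling also shifted the split at E18.5 to 5780 higher and 1317 lower and in bladder with age to 5742 and 302. Leaving out urethra replicate 1 at E18.5 left 2654 interaction calls. With 3 or 4 litters a group, differences within the stated intervals cannot be resolved.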
